A study of Mus musculus with 30 samples.

Results

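The 8 immunoglobulin constant region genes Igha, Ighm, Ighg1, Ighg2b, Ighg2c, Igkc, Iglc1 and Iglc2 were followed through 8 sorted monocyte and macrophage populations of glioma-bearing mice. They are 8 of the 45317 genes in the count tables. They were chosen from values of these data, since Igha was high in glioma monocytes and absent from Ly6Chigh blood monocytes, and the comparison of those populations is therefore given as a description with no test. All 8 genes passed the filter on low counts, which left 11566 genes, but Igha, Ighg1, Ighg2b and Ighg2c passed it only through the brain populations.

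GL261 glioma cells carrying a membrane-bound palmitoylated GFP were grown in the brains of mice with an RFP reporter knocked in at 1 copy of the Ccr2 gene (CCR2 RFP/WT, on C57BL6), 12 to 18 weeks old. Genotype and tumour were shared by all groups, so no tumour-free or reporter-free mouse stands beside them, and the heterozygous reporter leaves 1 intact copy of Ccr2. Blood monocytes were gated on CD45, CD115 and low CD11c and split into Ly6Chigh and Ly6Clow cells. Cells of the tumour-bearing brain were gated on high CD11b and CD45 and split by Ly6C, F4/80 and CCR2-RFP into glioma monocytes, CCR2high macrophages and CCR2low macrophages, each without (GFPneg) or with (GFPpos) tumour GFP. The stains named in the methods held no antibody against B or plasma cell markers.

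The study used 4 mice, 2 male and 2 female per its methods. The numbers 22, 23, 24 and 26 in the sample titles were taken as the mice, which the labels do not say in words. The 30 libraries gave 28 replicates, 6 from blood and 22 from brain. Monocyte populations had 3 replicates (blood from mice 22, 23 and 24, brain from mice 22, 24 and 26) and macrophage populations had 4. Replicates held between 1553616 and 5689644 gene counts (median 2140229.5). The GFPpos glioma monocytes of mouse 22 had 2 libraries, which were summed. The first of 2 libraries of the Ly6Clow blood monocytes of mouse 23 had fewer than 6000 genes with 5 reads and was left out. The library kept for this sample had 6475 such genes, against 9512 and 10882 in the Ly6Clow replicates of mice 22 and 24. The labels call the tissue of every sample brain, blood monocytes included. Monocyte and macrophage markers summed to 9936 to 27694 counts per 1000000 (CPM, on the scaled library size) in the brain replicates and to 19946 to 45285 CPM in blood, and microglia markers to 1465 to 7491 CPM in brain and 145 to 282 CPM in blood.

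An antibody is built of heavy and light chains, and each chain is a variable domain joined to a constant region. The heavy constant region sets the class. Ighm encodes the heavy chain of IgM, the class of naive B cells, which is made together with that of IgD. Class switching deletes the DNA between the variable exon and a downstream constant gene, so that the cell then makes IgG (Ighg1, Ighg2b, Ighg2c), IgE or IgA (Igha), the class best known from mucosal surfaces. Igkc encodes the kappa light chain and Iglc1 and Iglc2 encode lambda light chains. These genes are rearranged and expressed in B cells and, at very high levels, in plasma cells. IgA and IgM polymers are linked by the J chain, which is encoded by Igj (Jchain).

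The heavy chain genes lie in the constant region cluster on the minus strand of chromosome 12 of mouse GRCm38 (GENCODE vM21 annotation, biotype IG_C_gene). Igha spans chr12:113254830-113260236, Ighg2c chr12:113285325-113288932, Ighg2b chr12:113302965-113307933, Ighg1 chr12:113325240-113330523 and Ighm chr12:113418558-113422730. Igkc lies on the plus strand at chr6:70726435-70726966. Iglc1 (chr16:19061618-19062071) and Iglc2 (chr16:19198396-19200351) lie on the minus strand of chromosome 16. The first 90 coding bases of the heavy and light chain genes with the highest levels are shown as an example of sequence that differs between these genes. They come from exon sequence at chr12:113260147-113260236, chr12:113422641-113422730 and chr6:70726435-70726524.
Igha: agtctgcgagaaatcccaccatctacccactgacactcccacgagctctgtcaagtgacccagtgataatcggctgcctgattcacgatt
Ighm: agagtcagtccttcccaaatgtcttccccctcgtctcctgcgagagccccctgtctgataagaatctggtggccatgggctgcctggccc
Igkc: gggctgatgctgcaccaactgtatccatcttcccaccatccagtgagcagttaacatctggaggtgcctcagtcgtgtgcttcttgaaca

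The IgG genes resemble each other more closely, and their first 90 coding bases (chr12:113330434-113330523, chr12:113307844-113307933 and chr12:113288843-113288932) are shown for that reason, with capitals at the bases that differ from Ighg1. Ighg2b had 17 and Ighg2c had 18 such bases.
Ighg1: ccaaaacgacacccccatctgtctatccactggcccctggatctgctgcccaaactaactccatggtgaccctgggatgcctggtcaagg
Ighg2b: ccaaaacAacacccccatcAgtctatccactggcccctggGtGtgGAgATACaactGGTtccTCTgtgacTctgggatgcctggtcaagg
Ighg2c: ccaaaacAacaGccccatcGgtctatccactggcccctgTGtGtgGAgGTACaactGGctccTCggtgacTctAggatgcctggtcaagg

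Reads that fit more than 1 gene could not be told apart by the counting. Of the 75-base stretches of each annotated gene, 75 being the read length, none of Igha, Ighm, Ighg1, Igkc or Iglc1 occurred in another constant gene. Ighg2b shared 0.768% of its stretches, Ighg2c 0.480% and Iglc2 0.931%. The longest run shared by Ighg2b and Ighg2c was 78 bases. Iglc2 and the lambda gene Iglc3, which is no member here, shared a run of 79 bases, shown in capitals within exon sequence at chr16:19198660-19198758 and chr16:19065489-19065587. Counts of Iglc2 are thus the least certain of the 8.
Iglc2: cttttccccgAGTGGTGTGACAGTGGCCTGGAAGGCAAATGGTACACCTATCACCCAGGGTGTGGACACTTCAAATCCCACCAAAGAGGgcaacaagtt
Iglc3: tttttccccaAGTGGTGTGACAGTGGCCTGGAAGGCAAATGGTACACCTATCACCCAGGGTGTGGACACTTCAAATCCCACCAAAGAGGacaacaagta

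Igha was at 0 counts in all 6 blood replicates and was detected in 21 of the 22 brain replicates. A count of 0 allows up to 0.627 to 1.76 CPM in these blood replicates (3 counts, counting error only). In GFPneg glioma monocytes its level was 141, 1715 and 860 CPM in mice 22, 24 and 26 (905 ± 788 CPM, SD, n = 3), and in GFPpos glioma monocytes 786, 399 and 0 CPM (395 ± 393 CPM, n = 3). Both populations held high replicates, but the GFPpos glioma monocytes of mouse 26 had no Igha count at all. Among macrophages of mice 22, 23, 24 and 26, the levels were 58.7, 10.2, 463 and 4.80 CPM in GFPneg CCR2high cells and 26.6, 2.80, 663 and 44.5 CPM in GFPpos CCR2high cells. They were 11, 19.6, 991 and 160 CPM in GFPneg CCR2low and 192, 122, 1118 and 3.14 CPM in GFPpos CCR2low macrophages. Igha was therefore not limited to monocytes among the brain populations, and mouse 24 stood above the other mice in 5 of the 6 of them. Taken by mouse over the brain populations, the median was 827 CPM in mouse 24 (range 399 to 1715 CPM), 99.8 CPM in mouse 22, 14.9 CPM in mouse 23 and 24.6 CPM in mouse 26. Within that mouse the blood remained at 0. In order of mean level the brain populations overlapped their neighbours, and only the step from the lowest of them, GFPneg CCR2high macrophages, to blood had no overlap.

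**Figure D1:**
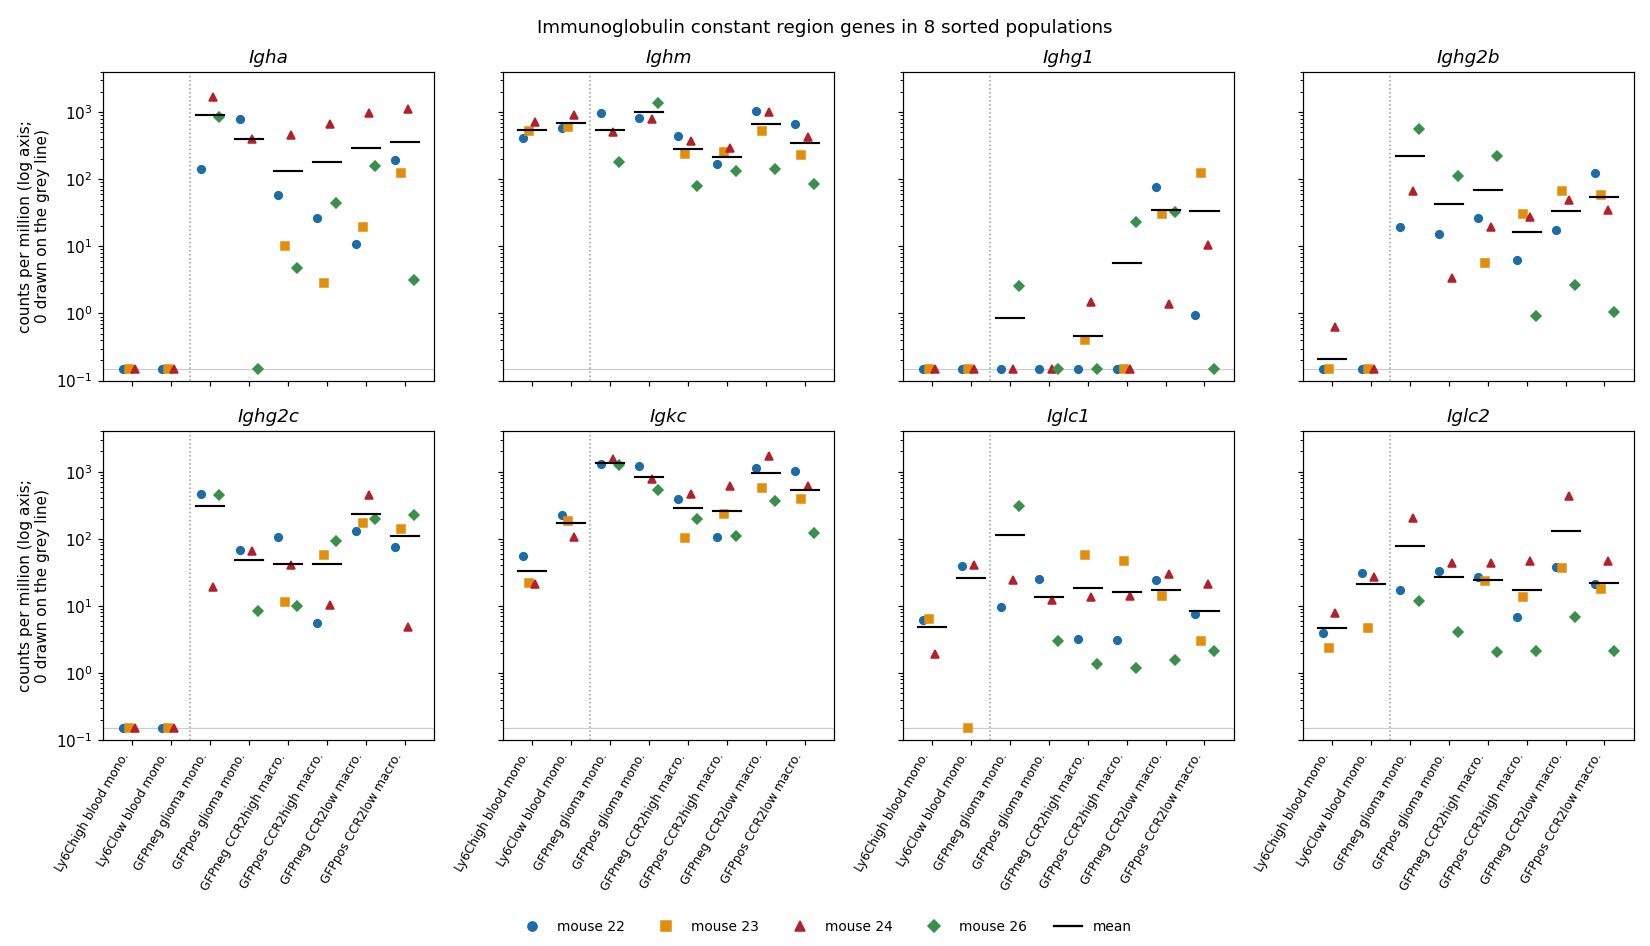
CPM on a log axis of each of the 8 constant region genes in each replicate of the 8 populations, with points marked by mouse and a bar at the mean. Igha, Ighg1 and Ighg2c sit at 0 in all blood replicates, Ighm overlaps between blood and brain, and mouse 24 is the highest for Igha in 5 of 6 brain populations.

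Ighm was present in every replicate. It reached 407, 517 and 709 CPM in the Ly6Chigh blood monocytes of mice 22, 23 and 24 (545 ± 153 CPM, n = 3) and 578, 603 and 912 CPM in their Ly6Clow blood monocytes (697 ± 186 CPM, n = 3). Glioma monocytes of mice 22, 24 and 26 had 970, 501 and 181 CPM without GFP and 828, 806 and 1365 CPM with GFP. Blood and glioma monocytes thus overlapped. Levels in mice 22, 23, 24 and 26 were 448, 242, 371 and 79.4 CPM in GFPneg and 167, 260, 298 and 135 CPM in GFPpos CCR2high macrophages. CCR2low macrophages had 1043, 521, 1000 and 144 CPM without GFP and 670, 233, 424 and 84.7 CPM with it. Every neighbouring pair of populations overlapped in the order of Ighm means.

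Counts of the IgG genes came almost wholly from brain replicates. Ighg2c was at 0 in all blood replicates and present in all 22 brain replicates. It stood at 463, 19.3 and 451 CPM in GFPneg glioma monocytes and at 68.1, 66.1 and 8.26 CPM in GFPpos glioma monocytes. Macrophages of mice 22, 23, 24 and 26 had 107, 11.2, 41.1 and 9.83 CPM (GFPneg CCR2high), 5.57, 57.8, 10.2 and 92.7 CPM (GFPpos CCR2high), 131, 171, 443 and 194 CPM (GFPneg CCR2low) and 74.5, 141, 4.89 and 222 CPM (GFPpos CCR2low). No mouse led throughout, and all 4 GFPneg CCR2low replicates were above all 4 GFPneg CCR2high replicates. Ighg2b had 3 counts in the Ly6Chigh blood monocytes of mouse 24 (0.627 CPM) and 0 in the other blood replicates. In glioma monocytes it had 19.6, 66.4 and 571 CPM without GFP and 15.1, 3.41 and 110 CPM with GFP, mouse 26 being the highest in both. In macrophages Ighg2b ranged from 0.931 CPM in the GFPpos CCR2high replicate of mouse 26 to 224 CPM in the GFPneg CCR2high replicate of the same mouse.

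Ighg1 was the rarest member. It was at 0 in blood and in the GFPpos glioma monocytes and at 0, 0 and 2.58 CPM in the GFPneg glioma monocytes. GFPneg CCR2high macrophages held at most 3 counts, and GFPpos CCR2high macrophages held 22.8 CPM in mouse 26 and 0 in the others. In CCR2low macrophages Ighg1 had 77.1, 30.4, 1.39 and 32.7 CPM without GFP and 0.937, 122, 10.6 and 0 CPM with GFP (mice 22, 23, 24 and 26). The gene was thus found mainly in CCR2low macrophages, in which it varied from mouse to mouse over nearly the whole of its range.

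Igkc was low in Ly6Chigh blood monocytes, at 55.1, 21.7 and 21.1 CPM (32.6 ± 19.4 CPM, n = 3). Ly6Clow blood monocytes had 225, 182 and 106 CPM (171 ± 60.5 CPM, n = 3), all above the Ly6Chigh replicates. It was highest in GFPneg glioma monocytes, at 1300, 1545 and 1245 CPM (1363 ± 160 CPM, n = 3). GFPpos glioma monocytes had 1218, 767 and 524 CPM, below the GFPneg replicates without overlap. Among macrophages of mice 22, 23, 24 and 26, GFPneg CCR2high cells had 396, 103, 458 and 197 CPM and GFPpos CCR2high cells 105, 231, 609 and 109 CPM. CCR2low macrophages had 1132, 570, 1728 and 362 CPM without GFP and 1027, 393, 602 and 120 CPM with GFP. In contrast to Igha, Igkc in GFPneg glioma monocytes varied little between mice (SD 160 CPM on a mean of 1363 CPM).

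The lambda genes were low in most replicates with a few far higher. Iglc1 was between 1.88 and 6.44 CPM in Ly6Chigh blood monocytes and at 38.7, 0 and 40.5 CPM in Ly6Clow blood monocytes. In brain it lay between 1.16 and 56.3 CPM except in the GFPneg glioma monocytes of mouse 26, at 308 CPM. Iglc2 was between 2.34 and 7.94 CPM in Ly6Chigh and at 31.1, 4.63 and 27.2 CPM in Ly6Clow blood monocytes. In brain it was highest in mouse 24 in all 6 populations, with 205 CPM in GFPneg glioma monocytes and 434 CPM in GFPneg CCR2low macrophages, and between 2.06 and 46.4 CPM in the other 20 brain replicates. Blood and brain overlapped for both lambda genes.

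The members together took 0.0494% to 0.114% of gene counts in blood (median 0.0783%) and 0.0302% to 0.490% in brain (median 0.160%), so the summed level overlapped. In bulk samples like these, fewer cells of a type and less RNA per cell cannot be told apart. Blood and brain differed more clearly in which constant genes were read. Within the counts on all heavy chain constant genes (Ighm, Ighd, the Ighg genes, Ighe and Igha), the classes downstream of Ighm and Ighd took 0% to 0.0871% in blood and 7.97% to 91.0% in brain (median 52.7%), without overlap. The rule chose on Igha, which is part of this share, so it is a description. The leading heavy gene in the 22 brain replicates was Ighm in 14, Igha in 5, Ighg2c in 2 and Ighg2b in 1.

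The class mixture differed strongly among replicates of a population. Igha held 73.4% of the 4366 heavy constant counts in the GFPneg glioma monocytes of mouse 24 (95% exact binomial interval 72% to 74.7%, counting error only), 41.5% of 3210 in mouse 26 (39.8% to 43.3%) and 8.79% of 3196 in mouse 22 (7.83% to 9.83%). Mouse 26 showed a different class in each of several populations. Its GFPpos glioma monocytes were 91.8% Ighm, its GFPneg CCR2high macrophages 69.8% Ighg2b and its GFPpos CCR2low macrophages 69.8% Ighg2c. In mouse 24, Igha led in GFPneg glioma monocytes, both CCR2high populations and GFPpos CCR2low macrophages (67.4% of 5773 counts, interval 66.2% to 68.6%), and in its GFPneg CCR2low macrophages Ighm (35.1%) and Igha (34.8%) were close. Ighd, the IgD gene, took up to 20.8% of heavy constant counts, in the Ly6Clow blood monocytes of mouse 23. That value rests on 1 library, and the library of this sample that was left out had 0 counts of Ighd beside 861 of Ighm. Other class genes were prominent in few replicates. Ighg3 reached 212 CPM in the GFPneg CCR2low macrophages of mouse 24, and Ighe reached 11 counts in those of mouse 22.

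**Figure D2:**
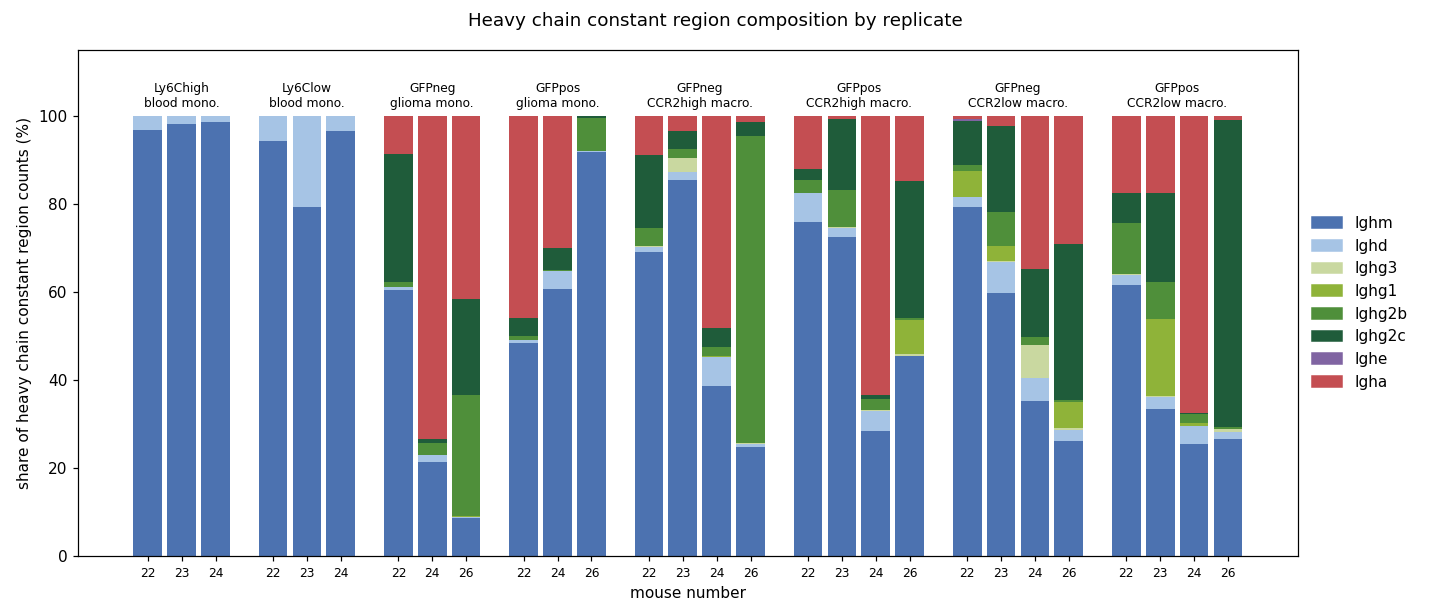
Share in percent of heavy chain constant counts on each class gene, as stacked bars from 0, 1 bar per replicate. Blood bars are almost wholly Ighm and Ighd, while brain bars hold 7.97% to 91.0% of Ighg, Ighe and Igha counts in a mixture that changes from replicate to replicate.

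Heavy and light chain genes were set against each other per kilobase of annotated exon. The Ighm to Igkc ratio of these per-length levels was 2.09, 6.73 and 9.47 in Ly6Chigh blood monocytes and 0.723, 0.934 and 2.43 in Ly6Clow blood monocytes. In brain it lay between 0.0411 and 0.735 (median 0.205), and only the brain replicate with the highest ratio, GFPpos glioma monocytes of mouse 26 at 0.735, was above the lowest blood replicate. Switched heavy chains pair with kappa chains as well, so summed heavy genes were also taken against summed light genes. The heavy sum held the heavy members with Ighd and Ighg3, and the light sum held the light members with Iglc3. The ratio of these sums was 0.499 to 6.45 in blood and 0.269 to 0.890 in brain (median 0.384), and it overlapped. Blood thus held more Ighm per Igkc than brain apart from that replicate, most of all in Ly6Chigh monocytes. The lambda share of light chain level per length, with Iglc3 included, was 15.2% to 46.3% in blood (median 33.9%) and 3.03% to 48.6% in brain (median 11.5%).

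**Figure D3:**
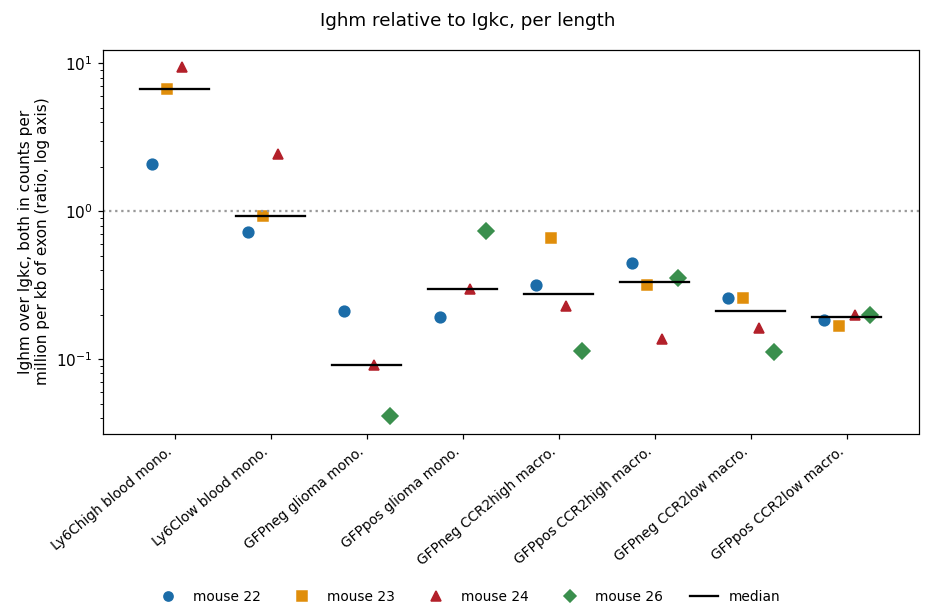
Ratio of Ighm to Igkc, each as CPM per kilobase of exon, on a log axis for every replicate by population. Ly6Chigh blood monocytes lie at 2.09 to 9.47, Ly6Clow blood monocytes at 0.723 to 2.43 and brain replicates at 0.0411 to 0.735.

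Counts on variable segments, the part of the chain that differs between B cell clones, were compared with the constant counts. The tables held 183 heavy (Ighv), 158 kappa (Igkv) and 3 lambda (Iglv) variable segment genes. For each 100 heavy constant counts, blood replicates held 1.05 to 6.24 Ighv counts (median 2.35) and brain replicates 8.47 to 25.9 (median 17), with no overlap. The brain replicate in which Ighm made up 91.8% of heavy constant counts held 12.6. For each 100 Igkc counts, the Igkv counts were alike in blood (48.0 to 64.4, median 52.7) and brain (45.7 to 66.2, median 56.0). Heavy constant counts in blood were thus accompanied by few variable segment counts, while kappa constant counts were not.

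The spread of counts over variable segments was read as well. A brain replicate held 6 to 54 Ighv segments with a count and a blood replicate 1 to 37, at lower counts. Of the 22 replicates with at least 100 Ighv counts, the leading segment took 7.27% to 97.0% of them (median 40.7%), over 50% in 9 replicates, and 13 different segments led. Of the 24 replicates with at least 100 Igkv counts, the leading segment took 8.51% to 94.1% (median 36.3%), over 50% in 6 replicates, and 15 different segments led. The lowest of both shares belonged to the Ly6Clow blood monocytes of mouse 24. Related segments share sequence, and reads that fit more than 1 segment could not be told apart by the counting. Of 75-base stretches, 13.5% of those of Ighv4-1 and 30.9% of those of Igkv1-117 also occurred in another segment.

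Ighv4-1, on the minus strand of chromosome 12, stood out because it recurred in several populations of the mouse with most Igha. It was singled out after its values were seen. Its last 150 coding bases, chr12:113948282-113948431, are shown as the germline (GENCODE vM21) segment, not as sequence read from these mice.
Ighv4-1: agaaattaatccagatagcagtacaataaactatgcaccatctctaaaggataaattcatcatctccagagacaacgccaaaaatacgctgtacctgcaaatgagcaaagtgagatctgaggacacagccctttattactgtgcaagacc

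In mouse 24, Ighv4-1 had 637 counts in GFPneg glioma monocytes (62.3% of Ighv counts, 95% exact interval 59.2% to 65.2%), 149 in GFPpos glioma monocytes (47.6%, 42.0% to 53.3%) and 286 in GFPneg CCR2high macrophages (71.9%, 67.2% to 76.2%). It had 1034 in GFPpos CCR2low macrophages (89.0%, 87.0% to 90.7%) and 86 in GFPneg CCR2low macrophages (9.31%). GFPpos CCR2high macrophages of the same mouse, with 663 CPM of Igha, had none of it, and Ighv1-82 led there with 51.2% (46.0% to 56.5%). The blood replicates of mouse 24 had 1 count each. In the other mice the segment had at most 2 counts, except in the GFPneg CCR2low macrophages of mouse 22. There it led, with 82 of 372 Ighv counts, a larger share than in the same population of mouse 24. Igha took only 0.838% of heavy constant counts in that replicate of mouse 22. Ighv4-1 was thus not particular to the mouse with most Igha. The kappa segment Igkv1-117 led in mouse 24 in GFPneg glioma monocytes (820 counts, 53.0%, interval 50.5% to 55.5%), in GFPpos glioma monocytes (215, 41.7%, 37.4% to 46.1%) and in GFPpos CCR2low macrophages (675, 65.2%, 62.2% to 68.1%). It also led narrowly in the GFPneg glioma monocytes of mouse 22, with 13.9% against 13.8% for Igkv1-135. In the Ly6Clow blood monocytes of mouse 23 it led with 48.5%, where only 4 Igkv segments had a count. In the left-out library of that sample all 61 Igkv counts were on Igkv8-24. Igkv1-117 was thus not particular to mouse 24, though its leads elsewhere have these limits.

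In mouse 26 several leading pairs were seen, and only the pair of Ighv1-59 and Igkv14-111 recurred among its populations. Its GFPpos glioma monocytes, the replicate without Igha, had 82.0% of Ighv counts on Ighv1-80 (78.4% to 85.3%) and 94.1% of Igkv counts on Igkv5-48 (92.3% to 95.6%). Its GFPneg CCR2high macrophages, with the highest macrophage level of Ighg2b, had 97.0% on Ighv5-9-1 (94.5% to 98.5%) and 54.2% on Igkv4-61. Its GFPpos CCR2low macrophages, in which Ighg2c led, had 84.4% on Ighv1-59 (76.8% to 90.4%) and 86.3% on Igkv14-111 (79.2% to 91.6%). The same pair led in its GFPpos CCR2high macrophages, with 47.8% (40.5% to 55.3%) and 33.3% (28.1% to 38.9%), and Ighv5-9-1 led in its GFPneg glioma monocytes with 24.4% (21.5% to 27.5%). Its GFPneg CCR2low macrophages had 53.5% on Ighv1-82 and 58.4% on Igkv12-44. Some of these segments led in other mice as well. In mouse 22, Ighv5-9-1 led in GFPpos CCR2low macrophages with 22.6% and Igkv5-48 in GFPpos glioma monocytes with 39.3%. In mouse 24, Ighv1-82 led in GFPpos CCR2high macrophages with 51.2%. Only 3 lambda segments were listed. In the 7 replicates with at least 100 lambda segment counts, the leading one held 75.9% to 99.8% of them (median 86.9%). Iglv1 held 444 of 445 lambda counts in the GFPneg glioma monocytes of mouse 26, in which Iglc1 was highest, and Iglv3 held 552 of 610 in the GFPneg CCR2low macrophages of mouse 24, in which Iglc2 was highest.

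**Figure D4:**
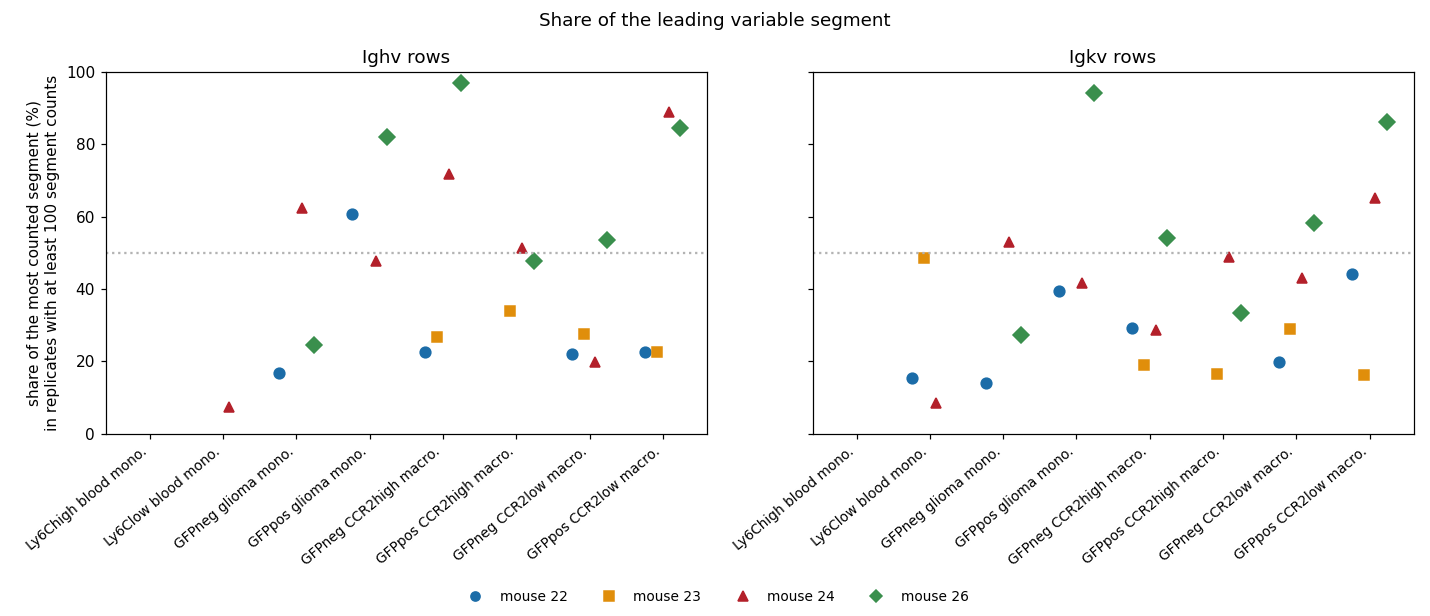
Percent of heavy (Ighv) and of kappa (Igkv) variable segment counts held by the leading segment in each replicate with at least 100 such counts, by population. Shares run from 7.27% to 97.0% for heavy and from 8.51% to 94.1% for kappa segments.

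Macrophages were then compared with Ly6Clow blood monocytes, neither of which the rule had used. These comparisons and the next one share the 3 Ly6Clow replicates. Igha, Ighg1, Ighg2b and Ighg2c had 0 counts in all 3 and passed the filter on low counts only through brain, so their direction was fixed beforehand and their calls are given as a description. Their folds are lower bounds against 3 counts per replicate, and their fitted log2 values depend on the prior count and are not given. Only Ighm, Igkc, Iglc1 and Iglc2 could have gone either way.

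In GFPneg CCR2high macrophages the quasi-likelihood test of edgeR, Benjamini-Hochberg adjusted, called 0 of these 4 members, where 23.1% of all genes were called and 14.7% were called higher. DESeq2 called 0 of the 4 as well, and 1 of them, Ighm, had an unadjusted p under 0.05. Ighm was at 285 against 697 CPM, without overlap, and did not pass (log2 fold change -1.29, SE 0.61, adjusted p = 0.128). Of the members at 0 in Ly6Clow monocytes, the mean of Ighg2c was at least 36.7-fold higher (adjusted p = 0.00425), or 18-fold without the replicate of mouse 22. That of Ighg2b was at least 59.8-fold higher (adjusted p = 0.00652), or 14.9-fold without the replicate of mouse 26. That of Igha was at least 116-fold higher, or 21.3-fold without the replicate of mouse 24, and did not pass (adjusted p = 0.0514), though DESeq2 called it.

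In GFPneg CCR2low macrophages the test called 1 of the 4 members, where 23.4% of all genes were called and 15% were called higher. Igkc was 5.54-fold higher (log2 2.47, SE 0.69, adjusted p = 0.0111), and without any library of mouse 24 it was not called (adjusted p = 0.0982). Ighm, Iglc1 and Iglc2 overlapped between the groups, and Iglc2 was called by DESeq2 only. Of the members at 0 in Ly6Clow monocytes, Ighg2c was at least 204-fold higher (adjusted p = 0.000485), Ighg2b at least 29.3-fold (adjusted p = 0.0136) and Ighg1 at least 30.7-fold (adjusted p = 0.0302), or 18.6-fold without the replicate of mouse 22. Igha was at least 256-fold higher (adjusted p = 0.0322). Without any library of mouse 24 its bound was 49.4-fold and its adjusted p was 0.0711, and Ighg2c alone kept its call. Leaving out the Ly6Clow replicate of mouse 22, 23 or 24 took the call from Igha and Ighg1 each time.

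GFPneg glioma monocytes were set against Ly6Clow blood monocytes as well. The rule used the glioma monocytes, so this comparison is not independent of it. The test called 1 of the 4 members measured in blood, where 18.5% of all genes were called and 13% were called higher. Igkc was 7.96-fold higher (log2 2.99, SE 0.73, adjusted p = 0.00493). Ighg2c was at least 270-fold higher (adjusted p = 0.000471) and Ighg2b at least 190-fold (adjusted p = 0.00275), or 37.3-fold without the replicate of mouse 26. When only these populations entered the fit, the call on Ighg2b was lost (adjusted p = 0.0636). Against Ly6Chigh blood monocytes, the comparison behind the rule, the mean of Igkc was 41.8-fold higher in GFPneg and 25.6-fold higher in GFPpos glioma monocytes, with no test. Igha in GFPpos glioma monocytes had a mean at least 291-fold higher, or 147-fold without the replicate of mouse 22, but the replicate of mouse 26 was at 0 as in blood.

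Within blood, the test on Ly6Chigh against Ly6Clow monocytes called 0 of the 4 members measured in blood, where 5.61% of all genes were called. Igkc came nearest, with a Ly6Chigh mean 0.191 times that of Ly6Clow monocytes (log2 -2.40, SE 0.73, adjusted p = 0.0504) and no overlap. With the mouse as a block the call was made (log2 -2.53, adjusted p = 0.00958), as it was by DESeq2 (adjusted p = 0.00848). Over 9 alternatives its adjusted p ran from 0.00848 to 0.738. All 12 T and NK cell markers tested were lower in Ly6Chigh than in Ly6Clow monocytes as well, and B cell markers summed to 99.6 to 176 CPM in Ly6Chigh and 424 to 660 CPM in Ly6Clow monocytes. Their part in the Igkc difference was not tested.

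Among brain populations no member was called by edgeR without the block, or by DESeq2. In GFPneg glioma monocytes against GFPneg CCR2high macrophages, 0 of 7 members and 0.182% of all genes (21 genes, with 622 at an unadjusted p under 0.05) were called. Igkc was 4.73-fold higher in the monocytes without overlap (log2 2.24, SE 0.64, adjusted p = 0.218), and with the mouse as a block it was called (log2 2.37, SE 0.52, adjusted p = 0.0235). Over 9 alternatives its adjusted p lay between 0.0235 and 1. Between GFPneg CCR2high and GFPneg CCR2low macrophages, 0 of 8 members and 0% of all genes were called, with 276 genes at an unadjusted p under 0.05. The smallest p of a member was that of Ighg1, which was not called. GFPneg CCR2high macrophages held at most 3 counts of it, so its fitted log2 value depends on the prior count and is not given. The gene was found mainly in CCR2low macrophages, so its direction was largely fixed beforehand. The non-overlapping Ighg2c replicates of both populations did not pass.

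GFPpos and GFPneg cells of the same population were compared to ask whether uptake of tumour membrane went with these transcripts. No member and 0% of all genes were called by edgeR in glioma monocytes, CCR2high or CCR2low macrophages, with 739, 69 and 184 genes at an unadjusted p under 0.05. Igha is among the 8 members here, although its level in both groups of glioma monocytes against blood chose the members. The members with the smallest p were Ighg2c in glioma monocytes (log2 -2.71, SE 1.21, adjusted p = 0.751), Ighg1 in CCR2high macrophages and Iglc2 in CCR2low macrophages (log2 -2.55, SE 1.15). Ighg1 held at most 3 counts in the GFPneg CCR2high replicates, so its fitted log2 value depends on the prior count and is not given. Its direction rested on mouse 26, since it reversed without the GFPpos CCR2high replicate of that mouse.

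Over the 4 members measured in blood and brain alike, the median log2 fold change against Ly6Clow blood monocytes was -0.15 in GFPneg CCR2high macrophages, 1.21 in GFPneg CCR2low macrophages and 2.00 in GFPneg glioma monocytes, beside 0.248, 0.26 and 0.241 over all genes tested. Between Ly6Chigh and Ly6Clow blood monocytes it was -2.23, beside 0.0234.

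Markers of B and plasma cells were read in the same replicates. Igj, the J chain, was at 0 in all 6 blood replicates and present in all 22 brain replicates, at 8.0 to 508 CPM. Like the switched classes it passed the filter only through brain. Against Ly6Clow blood monocytes its mean was at least 31.4-fold higher in GFPneg CCR2high macrophages (adjusted p = 0.00162), 127-fold in GFPneg CCR2low macrophages (adjusted p = 0.000192) and 252-fold in GFPneg glioma monocytes (adjusted p = 0.00011). Without the replicate of mouse 24 these bounds were 17.7-, 77.4- and 158-fold. Of 16 plasma cell markers 14 were tested, and 5 were called higher and 0 lower in each of these comparisons, beside the 14.7%, 15% and 13% of all genes called higher. Besides Igj these were Derl3, an endoplasmic reticulum degradation factor, Ell2, an elongation factor, and Prdm1, the plasma cell transcription factor that macrophages also express, in all 3, with Creld2 in both macrophage comparisons and Slamf7 in the monocyte comparison. Derl3 had at most 1 count in a blood replicate and up to 31 in brain, so it too passed the filter only through brain. The direction of Igj and Derl3 was thus fixed beforehand. Both are among the 5 called in each comparison, so that count is a description. Tnfrsf17, a defining plasma cell receptor, was at 0 in all blood replicates and in 6 of the 22 brain replicates and never exceeded 15 counts. Mzb1, a chaperone of immunoglobulin assembly, was at 0 to 7.55 CPM in blood and 2.09 to 50.4 CPM in brain and did not pass. Xbp1 (144 to 911 CPM in blood, 54.7 to 711 CPM in brain) and Sdc1 did not pass either. Other markers of the list had higher medians in blood than in brain, such as Irf4 (31.1 against 6.25 CPM) and Tnfrsf13b (119 against 80.4 CPM), and did not pass. Eaf2 reached 36.2 CPM in blood and at most 1.94 CPM in brain and was not tested. Summed over the list, plasma cell markers stood at 500 to 1237 CPM in blood and 624 to 1820 CPM in brain.

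B cell markers did not separate blood from brain. The 18 genes summed to 99.6 to 660 CPM in blood and 153 to 1625 CPM in brain. Cd79a, a subunit of the B cell receptor, was at 14.1 to 207 CPM in blood and 4.80 to 445 CPM in brain, and Ms4a1 was detected in every replicate. Pax5, the B lineage transcription factor, was at 0 in 2 of 6 blood and 11 of 22 brain replicates. Against Ly6Clow blood monocytes, Blnk was called higher and Cd79b lower (log2 -1.69, adjusted p = 0.0281) in GFPneg CCR2high macrophages, Blnk higher in GFPneg CCR2low macrophages, and no gene in GFPneg glioma monocytes. The part of B and plasma cells in the member levels was not tested.

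**Figure D5:**
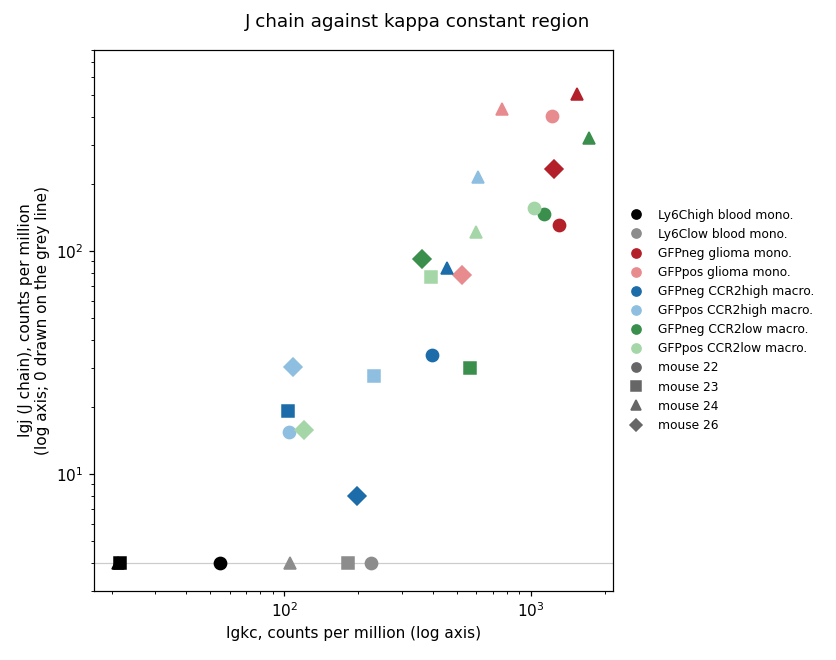
Igkc against Igj in each replicate, both as CPM on log axes, with blood and brain replicates marked. Igj is at 0 in the 6 blood replicates, which hold 21.1 to 225 CPM of Igkc, and at 8.0 to 508 CPM in the 22 brain replicates.

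Genes outside the immunoglobulin loci were ranked by the Pearson correlation of their log2 CPM with that of a member over the 28 replicates, as a description only, since the points share mice, depth and the blood to brain difference. Igj was the closest to Igha (r = 0.87, and 0.75 over the 22 brain replicates) and to Igkc (r = 0.85, 0.87 in brain). After it came Gm29340 (0.80), Isg15 (0.79), Usp18 (0.79) and Cxcl11 (0.78) for Igha, which fell to between 0.48 and 0.59 within brain. For Igkc they were the B lineage surface gene Ly6d (0.85), Mzb1 (0.80), the B cell gene Fcrla (0.80) and the stress factor Ddit3 (0.79). Within brain these 4 values were 0.84, 0.80, 0.73 and 0.56. The values for Ighm were lower, the closest being Cd37, a leukocyte tetraspanin (0.60), followed by Irf1 (0.59), Sltm (0.59), Rnf139 (0.58) and Eif2s3y (0.58).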

How the data were processed

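RNA of sorted cells was made into poly-A libraries with spike-in RNAs. Per the study's methods, the authors aligned the reads to the mouse genome, removed duplicates with Picard (1.8.4) and counted reads per gene with HTSeq on GRCm38.p3; the strand setting is not given in the sources used here, and the kit does not mark strand. The deposited values are raw counts per gene, in 2 tables with a column for each library. Rows without a gene (no feature, 6.28% to 17.4%, and ambiguous, 1.58% to 1.9%) and spike-ins were left out of library sizes and tests. Duplicate removal can lower the counts of very abundant short genes such as Igkc.

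Groups came from the labels, and the mouse number from the sample titles. Repeat libraries that passed the study's rule (6000 genes with 5 reads) were summed. edgeR (4.0.16, R 4.3.3) was fitted to all 28 replicates with filterByExpr, TMM scaling and a robust quasi-likelihood test on the population, and the call was made where the p, adjusted by Benjamini-Hochberg over 11566 genes, was under 0.05. CPM are counts per 1000000 of the TMM-scaled library. The test was tried on simulated counts. DESeq2 (1.42.0) and other scalings, filters, sample sets and a block for the mouse were alternatives. Leaving out mouse 24 altogether was chosen after seeing the data.

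Samples with the same number were taken as 1 mouse, an inference from the titles and from the 4 animals of the study, and the block rests on it. Deviations from the population means had a median correlation of 0.136 over 86 same-mouse pairs and -0.0303 over 256 pairs of different mice, and 47 same-mouse pairs were over 0.1. The members, the marker lists and the tests were chosen with earlier results of these data known. The text gives all 8 members, and in each test those called or, where none was, the one with the smallest p, and for Igha, Ighm and Igkc the 5 genes most like them. Exon positions and lengths came from GENCODE vM21, which matched 92.1% of gene rows by symbol.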

Additional observations from a re-analysis of the deposited data

Results flagged for a closer look

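CPM of the 8 members were examined for replicates far from the others in the macrophage populations, which have 4 replicates, by Dixon's gap test. It singled out a replicate in 8 of 32 gene and population combinations, where chance gives about 1 in 20 for normally distributed values. CPM have a long upper tail and zeros, so that rate need not hold, and the combinations share mice. In Igha the replicate of mouse 24 was far above the others in all macrophage populations, at 462.8 CPM (GFPneg CCR2high), 663.382 CPM (GFPpos CCR2high), 990.696 CPM (GFPneg CCR2low) and 1118.34 CPM (GFPpos CCR2low). Ighg1 was far above the others at 22.8206 CPM in the GFPpos CCR2high macrophages of mouse 26, where the other replicates were at 0, and at 122.383 CPM in the GFPpos CCR2low macrophages of mouse 23. Ighg2b reached 224.138 CPM in the GFPneg CCR2high macrophages of mouse 26, and Iglc2 reached 434.297 CPM in the GFPneg CCR2low macrophages of mouse 24.

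The library of Ly6Clow blood monocytes of mouse 23 that was left out held 861 counts of Ighm, 101 of Igkc and 48 of Iglc2. Igha and the Ighg genes were at 0 in it, as in the library that was used. Ighd was at 0 in it as well, against 410 counts in the library that was used.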

How the results depend on the processing

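Counts of called members, which in the comparisons with Ly6Clow monocytes include those at 0 there, stayed within 1.5 times the main count in 132 of 144 recomputations. The main count was 0 within blood and among brain populations, where agreement means only that again no member was called. Members at 0 in Ly6Clow monocytes had a fixed direction, so the 132 is a weak measure of stability. Against Ly6Clow blood monocytes, GFPneg CCR2high macrophages had 4 calls with spike-in scaling (Igha and Igkc added) and 2 to 3 when 1 replicate was left out. GFPneg CCR2low macrophages had 2 calls with no filter on low counts, 1 without mouse 24 and 2 to 5 with 1 replicate left out. Ly6Chigh against Ly6Clow monocytes had 1 call, Igkc, with DESeq2 size factors (adjusted p = 0.049), without TMM (adjusted p = 0.0479) and by DESeq2 (adjusted p = 0.00848), and 0 to 1 with 1 replicate left out. With the mouse as replicate block there was 1 call, Igkc, in that comparison and 1 in glioma monocytes against CCR2high macrophages, and the block changed no other call. The log2 fold change of Ighg1 between GFPpos and GFPneg CCR2high macrophages ran from -3.35 to 4.77 with 1 replicate left out, and reversed to -3.35 without the GFPpos replicate of mouse 26. Of 252 recomputed single-gene results, 18 lost and 6 gained a call. Spike-in scaling shifted the all-gene median (log2) to between 1.69 and 1.87 in the comparisons with Ly6Clow monocytes and to -1.37 between GFPpos and GFPneg glioma monocytes, and moved 12 of 64 population levels by more than their SD, while the other 3 alternatives for levels moved none of theirs. Of gene and spike-in counts, spike-ins took 2.47%, 13.3% and 0.779% in the Ly6Clow replicates of mice 22, 23 and 24. They took 3.59%, 5.16% and 0.612% in the GFPpos glioma monocytes of mice 22, 24 and 26. The other replicates lay between 0.284% and 1.26%. The cause of the shifts was not tested. At 1 to 3 counts, as for Ighg1 in CCR2high macrophages, depth limits any comparison.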

Other observations

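The 2 libraries of the GFPpos glioma monocytes of mouse 22, summed above, can be read side by side. As counts per 1000000 gene counts, Igha was at 534 and 738, Ighm at 550 and 782, Igkc at 1423 and 894, Igj at 222 and 397 and Ighg2c at 80.3 and 49.6. They differed more in Iglc1, at 10.1 and 26.9, and Ighd, at 0 and 14.5. The same segments led in both, Ighv1-26 with 64.5% and 59.8% of heavy and Igkv5-48 with 40.6% and 38.5% of kappa segment counts.

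Genes for receptors that bind antibodies were measured in the same replicates. Of the 6 tested genes of the list for immunoglobulin transport and receptors, Fcgr1, Fcgr2b, Fcgr3 and Fcgrt were called in GFPneg CCR2high macrophages against Ly6Clow blood monocytes, 3 higher and 1 lower. GFPneg glioma monocytes gave the same counts of 3 higher and 1 lower, and GFPneg CCR2low macrophages gave 3 higher and 2 lower. Of all genes, 23.1%, 18.5% and 23.4% were called in these comparisons, in the order given. Genes of B cell precursors and recombination were at most 7.10 CPM in sum in any blood replicate and at most 33.4 CPM in any brain replicate. Siglech, known from plasmacytoid dendritic cells and microglia, was at 0 in blood and at 56.5 to 540 CPM in brain, and its part in the member levels was not tested.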
